A study of Mus musculus with 7 samples.

Results

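Glycolysis splits glucose into pyruvate and, with lactate dehydrogenase, lactate. The enzymes measured here cover that route from its entry to its end, and bone-forming cells are known to draw much of their energy from it and to release lactate even when oxygen is present. The set was given by name as 10 genes: the hexokinases Hk1 and Hk2, the phosphoglucose isomerase Gpi1, the phosphofructokinases Pfkl and Pfkp, the aldolase Aldoa, the phosphoglycerate kinase Pgk1, the enolase Eno1, the pyruvate kinase Pkm and the lactate dehydrogenase Ldha. Probe sets whose gene symbol field holds one of these names were taken, 17 of 22626 probe sets on the array. They measured 8 of the 10 genes, out of 12393 genes in all, and Gpi1 and Eno1 were not analysed here. For each gene the brightest probe set over the 7 arrays stands for it, and the others are given beside it. The brightest probe set that names Hk1 also names a ribosomal protein gene and its pseudogenes, so the brightest one that names Hk1 alone was used.

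The cells came from bone marrow stroma of OsxCre-mCherry;OcnCre-Topaz double transgenic mice 4 to 6 weeks old and were separated by flow cytometry 6 days after tamoxifen. Ocn+ cells, marked green (Topaz) through the osteocalcin promoter, gave 3 arrays, and Osx+ cells, marked red (mCherry) through the osterix promoter, gave 4 arrays. Both groups share the 2 transgenes and the tamoxifen, and cells of both colours were not analysed here. The labels do not say whether each array is a separate animal or which arrays share one. A p-value therefore speaks of the spread among the 7 arrays alone, and part of that spread may be technical. Each group held arrays of high and of low signal for Xist, an RNA that differs by sex, as given below. The arrays of a group are therefore not all repeats of the same sample. Each marker shows which promoter had been active at labelling, and a sorted fraction may hold several cell types.

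The osteolineage label was checked on genes of bone-forming cells. Values throughout are log2 signals, so a difference of 1 is a 2-fold change. Col1a1, the main collagen of bone, stood at 14.95 ± 0.03 in Ocn+ arrays (SD, n = 3) and 14.999 ± 0.05 in Osx+ arrays (SD, n = 4). Alpl, which encodes an alkaline phosphatase needed to mineralize bone, stood at 13.81 ± 0.07 and 13.69 ± 0.06 in Ocn+ and Osx+ arrays. Sp7, which encodes osterix, stood at 12.65 ± 0.35 in Ocn+ arrays and 12.47 ± 0.31 in Osx+ arrays. The Sp7 difference of Ocn+ minus Osx+ was 0.18 (SE 0.25), so Sp7 was not higher in Osx+ arrays. Runx2 was not analysed here. The mean of 8 of 15 osteoblast markers, these genes among them, ran from 12.72 to 13.31 in Ocn+ arrays against 12.34 to 13.33 in Osx+ arrays. Some marker lists of other cell types moved with the groups, with 0 markers past an adjusted p of 0.05 in limma, and are given as the mean signal of a list in each array. The mean of all 15 of 15 endothelial markers ran from 9.76 to 10.17 in Ocn+ arrays against 6.21 to 9.17 in Osx+ arrays, and that of 12 of 14 neutrophil markers from 11.18 to 11.39 against 7.68 to 10.74 in Osx+ arrays. The 8 measured osteoclast markers ran from 10.85 to 11.25 in Ocn+ arrays against 8.52 to 10.69 in Osx+ arrays, the 14 macrophage markers from 9.44 to 10.58 against 10.64 to 11.71, and the 10 cartilage markers from 9.87 to 11.57 against 11.03 to 13.23. The erythroid list ran from 7.08 to 8.68 in Ocn+ arrays against 7.45 to 8.92 in Osx+ arrays, the megakaryocyte list from 6.58 to 7.23 against 6.81 to 7.80, and the B lymphoid list from 6.63 to 7.51 against 6.48 to 7.93. No detection calls were used, so no marker can be called absent. The part of these cells in the enzyme values below was not tested, and fewer cells of a type cannot be told apart from less RNA per cell.

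The 3 promoters below were chosen after the values were seen, and none of the 3 genes reached an adjusted p under 0.05 in limma. Pfkp and Pfkl catalyse the same committed step and had the largest differences between the groups. Ldha is at the end of the route, and its arrays fell into 2 separate levels. The same split of the arrays parted those of Hk1 and Pfkl, as given below. The promoters are shown as RefSeq windows of 300 bases, 250 before and 50 after an annotated start. They are on GRCm38.p6 and written on the gene's strand. Hypoxia-inducible factor, a known activator of glycolytic genes, binds sites around the letters ACGTG or GCGTG, and capitals mark these letters on either strand. The Pfkp window is chr13:6648722-6649021 on the minus strand, the Pfkl window chr10:78009758-78010057 on the minus strand, and the Ldha window, that of 2 with more matches, chr7:46845554-46845853 on the plus strand.
Pfkp: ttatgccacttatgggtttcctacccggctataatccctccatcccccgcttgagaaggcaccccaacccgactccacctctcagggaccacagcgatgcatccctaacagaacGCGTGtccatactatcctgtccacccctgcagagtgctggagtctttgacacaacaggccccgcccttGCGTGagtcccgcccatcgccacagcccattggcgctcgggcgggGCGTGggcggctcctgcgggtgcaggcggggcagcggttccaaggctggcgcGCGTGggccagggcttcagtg
Pfkl: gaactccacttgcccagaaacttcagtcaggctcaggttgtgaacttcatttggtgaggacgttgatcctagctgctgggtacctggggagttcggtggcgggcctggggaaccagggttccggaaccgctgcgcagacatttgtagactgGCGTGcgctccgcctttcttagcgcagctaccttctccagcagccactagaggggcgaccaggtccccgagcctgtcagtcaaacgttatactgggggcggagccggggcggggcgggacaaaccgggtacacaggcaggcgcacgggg
Ldha: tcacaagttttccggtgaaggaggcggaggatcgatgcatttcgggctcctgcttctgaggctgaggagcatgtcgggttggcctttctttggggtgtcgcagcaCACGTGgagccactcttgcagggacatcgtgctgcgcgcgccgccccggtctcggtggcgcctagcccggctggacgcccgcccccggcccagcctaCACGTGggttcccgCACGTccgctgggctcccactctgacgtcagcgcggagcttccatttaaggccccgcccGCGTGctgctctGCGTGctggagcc

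Pfkp held 4 matches to GCGTG and 0 to ACGTG, Pfkl 1 match to GCGTG and 0 to ACGTG, and Ldha 5 matches to ACGTG and 2 to GCGTG, where both strands of its 2 CACGTG words are counted. All 10 named genes had a window in the table, and 13 of their 17 windows held at least 1 of the 2 words, in 9 of 10 genes. Of all 32851 RefSeq windows, 43.8% held one, in 46.7% of 27025 genes. ACGTG was in 7 of the 17 windows and 6 of the 10 genes, against 19.6% of all windows and 21.8% of all genes. The 17 windows held from 51.3% to 69.0% G and C, and the share over all windows was not matched for this. The share over all genes was not matched for the number of windows of a gene. The part of either in these counts was not tested. The windows of a gene can overlap, and a match describes letters and not a bound site.

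No glycolytic enzyme passed as different between Ocn+ and Osx+ cells. Pfkp had the largest difference, with 0.645 times the signal in Ocn+ cells, and the other 7 lay between 0.80 and 1.04 times. Of the 8 genes, 0 passed at an adjusted p under 0.05 in limma, where 0 of 12393 genes passed (0%). At an unadjusted p under 0.05 the count was 1 of 8, against 5.31% of all genes. The arrays of the 2 groups overlapped for all 8, against 6.9% of all genes without overlap. The difference of Ocn+ minus Osx+ was above 0 for 2 and below 0 for 6 of the 8. Their median was -0.07 log2 units. Of all genes 47.3% were below 0, with a median of 0.02. Of the 4907 genes at least as bright as the dimmest of the 8, 40.3% were below 0, with a median of 0.05. The 95% interval of the difference lay within 1 log2 unit of 0 for 6 of 8, the exceptions being Pfkl and Pfkp, against 59.9% of all genes and 73.2% of the 4907 genes at least as bright as the dimmest of the 8. The range of a gene over the 7 arrays had a median of 0.559 for the 8 and 0.861 for those bright genes.

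**Figure D1:**
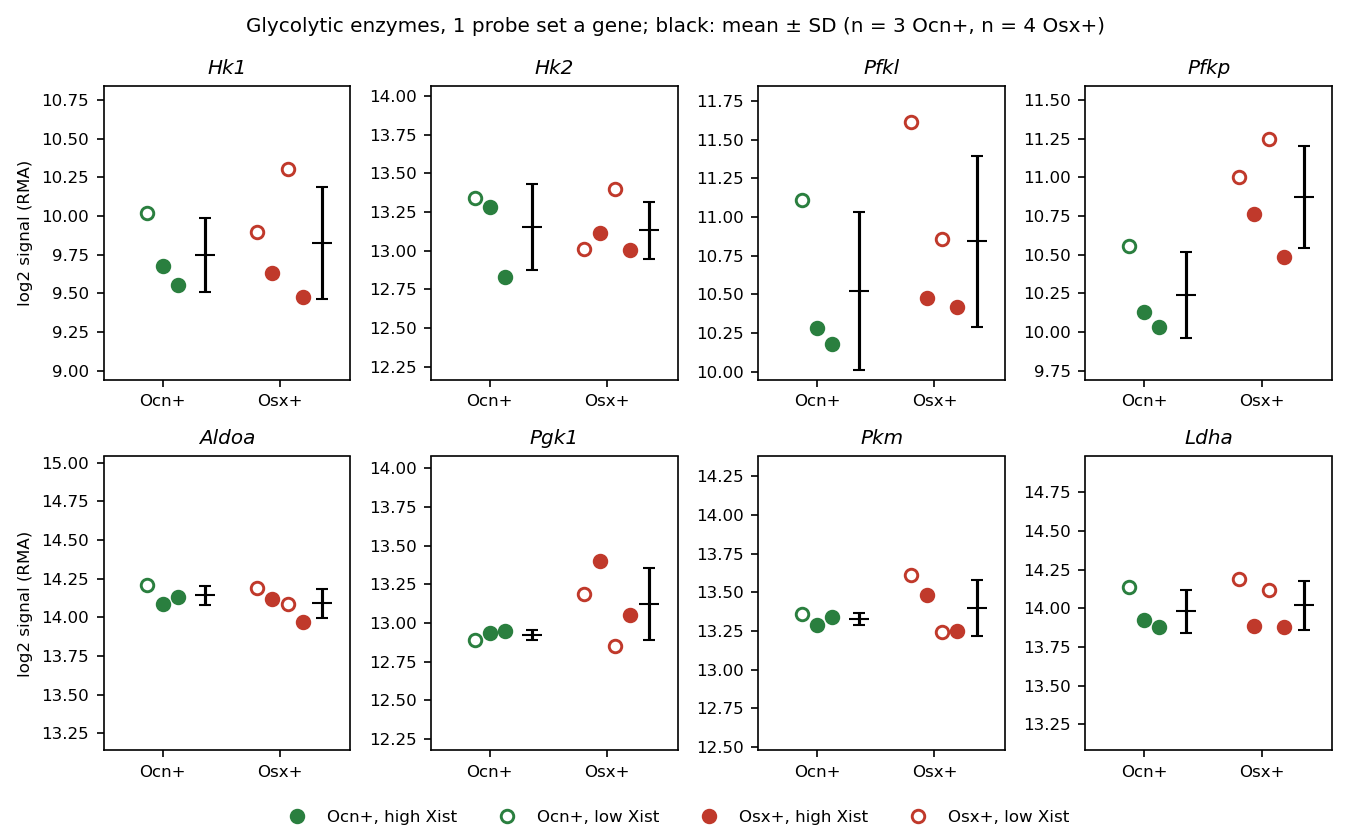
Log2 signal of the 8 glycolytic enzymes in each array, Ocn+ on the left and Osx+ on the right of each panel, with the mean ± SD in black (n = 3 and n = 4). Every panel spans the same number of log2 units, open points are arrays of low Xist signal, and the groups overlap in all 8 panels.

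Hexokinase traps glucose in the cell as glucose 6-phosphate. Hk1, the form of most tissues, read 10.02, 9.68 and 9.56 log2 units in Ocn+ replicates 1 to 3, against 9.90, 9.63, 10.31 and 9.48 in Osx+ replicates 1 to 4. The highest and the lowest value both belonged to Osx+ arrays. The difference was -0.08 (SE 0.24), with a 95% interval from -0.65 to 0.49. A dimmer probe set of Hk1 gave 0.27 (SE 0.22), the opposite sign, and the probe set shared with the ribosomal gene -0.05, which cannot be credited to Hk1.

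Hk2 is the form that insulin and hypoxia are known to induce. It read 13.34, 13.28 and 12.83 in Ocn+ arrays, against 13.01, 13.12, 13.40 and 13.002 in Osx+ arrays. Here the lowest value was Ocn+ replicate 3 and the highest Osx+ replicate 3, so the groups were interleaved. The difference was 0.02 (SE 0.19), an Ocn+ signal 1.01 times that of Osx+ with an interval from 0.737 to 1.39 times.

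Phosphofructokinase commits the sugar to glycolysis, and its 2 members here had the largest differences of the 8. Pfkp, the platelet-type form, read 10.56, 10.13 and 10.03 in Ocn+ arrays, against 11.00, 10.76, 11.25 and 10.48 in Osx+ arrays. Ocn+ replicates 2 and 3 lay below every Osx+ array, and Ocn+ replicate 1 lay just above Osx+ replicate 4, which is the whole overlap. The means were 10.24 ± 0.28 in Ocn+ arrays (SD, n = 3) and 10.87 ± 0.33 in Osx+ arrays (SD, n = 4), a difference of -0.63 (SE 0.24), so that Ocn+ signal was 0.645 of Osx+ signal with an interval from 0.438 to 0.948. Its unadjusted p was 0.031 and its adjusted p over all genes 0.911 in limma, so it did not pass. This probe set averaged 10.60 over the 7 arrays. The dimmer Pfkp probe set averaged 6.22, below the array medians of 8.25 to 8.35, and leaned the other way. It read 6.56, 6.66 and 6.81 in Ocn+ arrays, against 5.34, 7.10, 4.50 and 6.57 in Osx+ arrays, a difference of 0.80 with an SE of 0.60. The lean toward lower Pfkp therefore rests on 1 of 2 probe sets, and with both averaged the difference was 0.08 (limma adjusted p = 0.999).

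Pfkl, the liver-type form, read 11.11, 10.28 and 10.18 in Ocn+ arrays, against 11.62, 10.48, 10.86 and 10.41 in Osx+ arrays. Replicate 1 was the highest array of each group. The difference was -0.32 (SE 0.37), and the second Pfkl probe set gave the same value, -0.32 (SE 0.37). The interval ran from -1.18 to 0.54 and included 0, so these arrays do not settle the sign of the Pfkl difference. Single arrays moved it, to -0.61 without Ocn+ replicate 1 and to -0.06 without Osx+ replicate 1, with -0.20 and -0.15 without Ocn+ replicates 2 and 3. The muscle-type form Pfkm, from the list of other glycolysis genes, went the other way, at 0.36 (SE 0.19). Its arrays ran from 10.71 to 11.10 in Ocn+ cells and from 10.17 to 10.68 in Osx+ cells without overlap, and its adjusted p was 0.999 in limma. Without Ocn+ replicate 1 its difference was 0.24.

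Aldoa, which cleaves the phosphorylated sugar, had the smallest range over the arrays of the 8. It read 14.21, 14.08 and 14.13 in Ocn+ arrays, against 14.19, 14.12, 14.08 and 13.97 in Osx+ arrays. All 7 values fell within 0.24 log2 units. The median range was 1.05 over all genes and 0.861 over those at least as bright as the dimmest of the 8. Whether signals this high are compressed was not tested. The difference was 0.05 (SE 0.14), with an interval from 0.825 to 1.30 times. Its other 3 probe sets gave 0.09, 0.11 and 0.07, so that all 4 pointed the same way by less than their SE.

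Pgk1, the first enzyme of the route to return energy as ATP and a gene of the X chromosome, read 12.89, 12.93 and 12.95 in Ocn+ arrays, against 13.19, 13.40, 12.85 and 13.06 in Osx+ arrays. The Ocn+ arrays were close together, with an SD of 0.03, and the Osx+ arrays lay on both sides of them, with an SD of 0.23. The difference was -0.20 (SE 0.17), and the other 2 probe sets gave -0.24 and -0.20. Its limma adjusted p was 0.999, and without Osx+ replicate 2 the difference was -0.11.

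Pkm makes pyruvate in the last step that yields ATP. It read 13.36, 13.29 and 13.34 in Ocn+ arrays, against 13.61, 13.48, 13.25 and 13.25 in Osx+ arrays. As for Pgk1, the Ocn+ values sat together inside the spread of the Osx+ values. The difference was -0.07 (SE 0.16), and without Osx+ replicate 1 it was 0.00.

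Ldha turns pyruvate into lactate and renews the cofactor that glycolysis needs. It read 14.14, 13.93 and 13.88 in Ocn+ arrays, against 14.19, 13.89, 14.12 and 13.88 in Osx+ arrays. Each group held both high and low arrays, 1 high of 3 in Ocn+ cells and 2 high of 4 in Osx+ cells. The difference was -0.04 (SE 0.16), and the interval ran from 0.748 to 1.27 times the Osx+ signal. The highest probe sets of these arrays read 15.27 to 15.38, and whether signals near 14 are compressed was not tested.

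**Figure D2:**
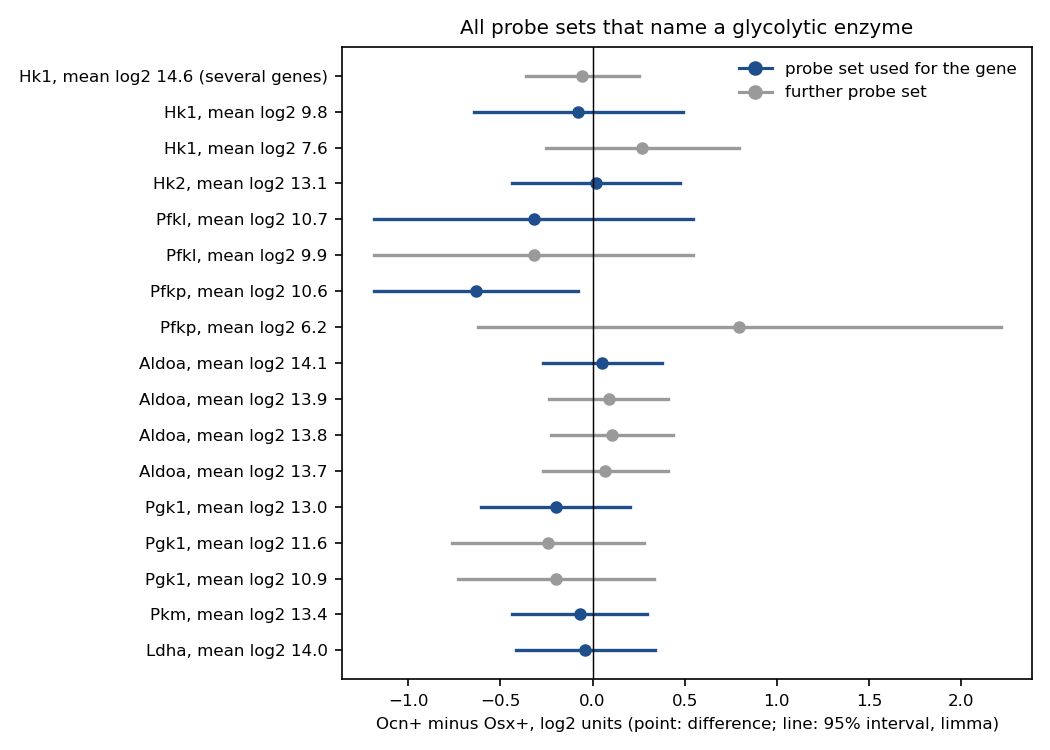
Difference of Ocn+ minus Osx+ in log2 units, with 95% intervals from limma, for all 17 probe sets that name one of the enzymes, labelled by gene and mean signal. The probe sets of Aldoa, Pfkl and Pgk1 agree in sign, the 2 of Pfkp lie at -0.63 and 0.80, and those of Hk1 at -0.08, 0.27 and -0.05.

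The 2 levels of Ldha went with another property of the arrays. Ocn+ replicate 1 and Osx+ replicates 1 and 3 had a low signal for Xist, the RNA of the inactive X chromosome, at 5.47, 4.87 and 5.79 log2 units, and the other 4 arrays ran from 12.33 to 12.96. The same 3 arrays had the largest drop in signal along the Gapdh transcript, measured by control probe sets as the 3′ minus the 5′ end. This drop was 0.89, 0.89 and 1.26 log2 units in them and 0.59 to 0.64 in the other 4. The same drop along the actin transcript was 0.60 and 0.77 in Osx+ replicates 1 and 3, but in Ocn+ replicate 1 it was 0.47, within the 0.46 to 0.50 of the other 4. The Xist class and the Gapdh measure split the arrays alike, the actin measure does not, and their part in the group differences was not tested beyond the values below.

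Ldha stood at 13.89 ± 0.02 in the 4 arrays of high Xist signal and 14.15 ± 0.03 in the 3 of low Xist signal, a wider gap than that between Ocn+ and Osx+ arrays. Hk1 stood at 9.59 ± 0.09 in the high-Xist and 10.07 ± 0.21 in the low-Xist arrays, and Pfkl at 10.34 ± 0.13 and 11.19 ± 0.39. The high-Xist and low-Xist arrays did not overlap for these 3 of 8 genes, against 34.3% of all genes. In a limma fit with both the Xist class and the cell group, the class, high minus low, passed at an adjusted p under 0.05 for Pfkl (-0.83, adjusted p = 0.0264) and Pfkp (-0.49, adjusted p = 0.0379), 2 of 8 against 28.2% of all genes. Both shares were near those of all genes.

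Within the classes the bright Pfkp probe set had a difference of similar size and the dim one did not. For the bright one the difference of Ocn+ minus Osx+ was -0.54 among the high-Xist arrays, 2 of each group, and -0.57 among the low-Xist arrays, 1 Ocn+ against 2 Osx+. The dim one was at -0.10 among the high-Xist and 1.63 among the low-Xist arrays. With the class in the fit the bright one was at -0.55 (SE 0.13), with an unadjusted p of 0.00548 and an adjusted p over all genes of 0.161 in limma, and it again did not pass. Pfkl was at -0.22 and -0.13 among the high-Xist and the low-Xist arrays. Ldha was at 0.02 and -0.02, Hk1 at 0.06 and -0.08, and Aldoa at 0.06 and 0.08 in the same order. Pgk1 was at -0.29 and -0.13.

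**Figure D3:**
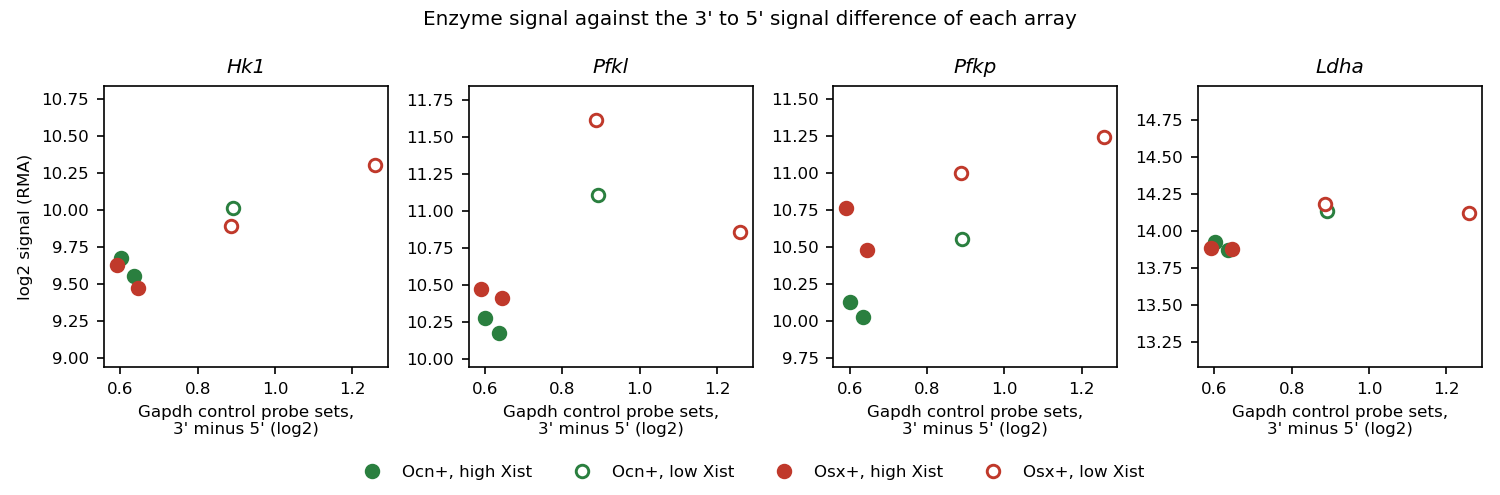
Log2 signal of Hk1, Pfkl, Pfkp and Ldha in each array against the 3′ minus 5′ signal of the Gapdh control probe sets, with Ocn+ in green, Osx+ in red and low-Xist arrays open. The 3 low-Xist arrays lie at 0.89, 0.89 and 1.26 on the horizontal axis, and the Ocn+ points of Pfkp lie below the Osx+ points of the same class.

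The other enzymes of the route did not pass either. Of 20 other glycolysis genes listed, 15 were measured, and 0 rose or fell at an adjusted p under 0.05. Their differences were above 0 for 6 and below 0 for 9, with a median of -0.05. Aldoc, the aldolase best known from brain, had the smallest p of them, with 9.26, 9.003 and 9.25 in Ocn+ arrays against 8.66, 8.88, 8.21 and 7.97 in Osx+ arrays. Every Ocn+ array lay above every Osx+ array. The difference was 0.74 (SE 0.25), an Ocn+ signal 1.67 times that of Osx+, with a limma adjusted p of 0.888. Gapdh, known from its control probe sets alone, read 14.30, 14.21 and 14.23 in Ocn+ arrays and 14.46, 14.32, 14.33 and 14.18 in Osx+ arrays on its 3′ control probe set.

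**Figure D4:**
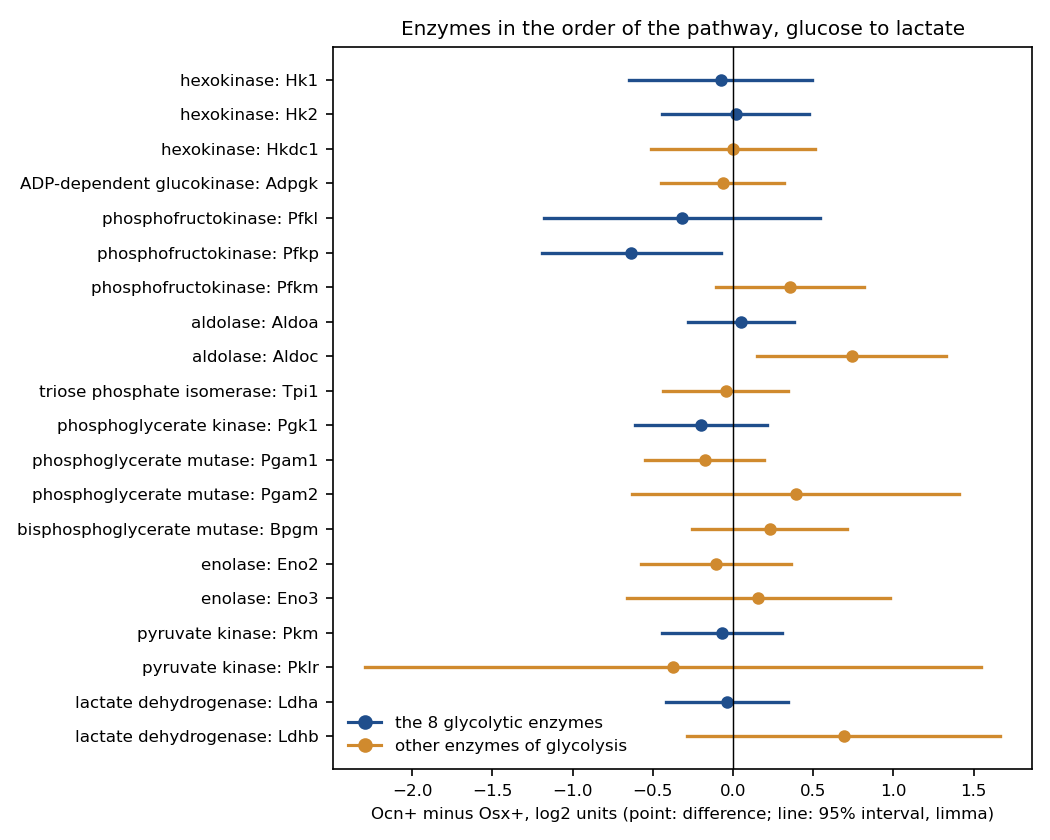
Difference of Ocn+ minus Osx+ in log2 units with 95% intervals from limma for 20 enzymes in pathway order, the 8 described above in blue and 12 others in orange (3 germ cell forms are left out). The intervals of Pfkp, at -0.63, and Aldoc, at 0.74, leave out 0, and those of the other enzymes shown include it.

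Glucose enters through facilitative transporters and lactate leaves through monocarboxylate transporters. Of 15 such genes 13 were measured and 0 passed, with a median difference of 0.01. Slc16a3, the lactate exporter of highly glycolytic cells, read 11.26, 10.69 and 10.48 in Ocn+ arrays, against 12.38, 11.77, 11.03 and 11.63 in Osx+ arrays. Osx+ replicate 3 was the one Osx+ array below Ocn+ replicate 1, and the others lay above all Ocn+ arrays. The difference was -0.89 (SE 0.34), with a limma adjusted p of 0.935. Slc2a4, the insulin-responsive glucose transporter, had a difference of 0.54 (SE 0.29), which was 0.30 without Ocn+ replicate 1 and -0.05 with its most variable probe set.

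Among 6 measured regulators of glycolytic flux, of 11 listed, 0 passed and the median difference was -0.03. Txnip, which restrains glucose uptake, read 12.90, 13.15 and 13.40 in Ocn+ arrays, against 12.23, 12.83, 12.04 and 12.92 in Osx+ arrays. Only Ocn+ replicate 1 lay below an Osx+ array, replicate 4. The difference was 0.64 (SE 0.27), with a limma adjusted p of 0.938. It was 1.02 with the mean of the Txnip probe sets and 1.39 with the most variable one. Fbp1, an enzyme of glucose synthesis, had a difference of -0.49 (SE 0.42), which was -0.20 without Osx+ replicate 1 and -0.80 without Osx+ replicate 3.

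For the entry of pyruvate into the mitochondrion, 12 of 17 genes were measured, 0 passed and the median difference was 0.16. Pdk4, a kinase that turns pyruvate dehydrogenase off, had a difference of 0.89 (SE 0.43) with overlapping groups. Me1, the cytosolic malic enzyme, read 9.47, 10.43 and 10.17 in Ocn+ arrays, against 10.59, 11.18, 10.65 and 10.78 in Osx+ arrays. All Ocn+ arrays lay below all Osx+ arrays. The difference was -0.77 (SE 0.27), with a limma adjusted p of 0.888, and without Ocn+ replicate 1 it was -0.50.

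The hypoxia-inducible factor pathway, known to drive glycolytic genes, had 18 of 21 genes measured, 0 passed, and a median difference of 0.03. Its members leaned both ways. Adm, a peptide hormone gene, read 9.59, 9.17 and 8.97 in Ocn+ arrays, against 8.51, 7.51, 8.53 and 8.40 in Osx+ arrays, a difference of 1.00 (SE 0.30) without overlap (limma adjusted p = 0.792). With 1 array left out the Adm difference ran from 0.76 (without Osx+ replicate 2) to 1.14 (without Ocn+ replicate 3). P4ha2, a collagen prolyl hydroxylase, ran from 11.93 to 12.21 in Ocn+ arrays and from 12.25 to 12.74 in Osx+ arrays, a difference of -0.43 (SE 0.17). Over the 7 pathway lists 85 of 107 genes were measured, 7 had an unadjusted p under 0.05, 4 of them higher and 3 lower in Ocn+ cells, and 8 did not overlap between the groups. These are shares of 8.24% and 9.41%, against 5.31% and 6.9% of all genes.

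**Figure D5:**
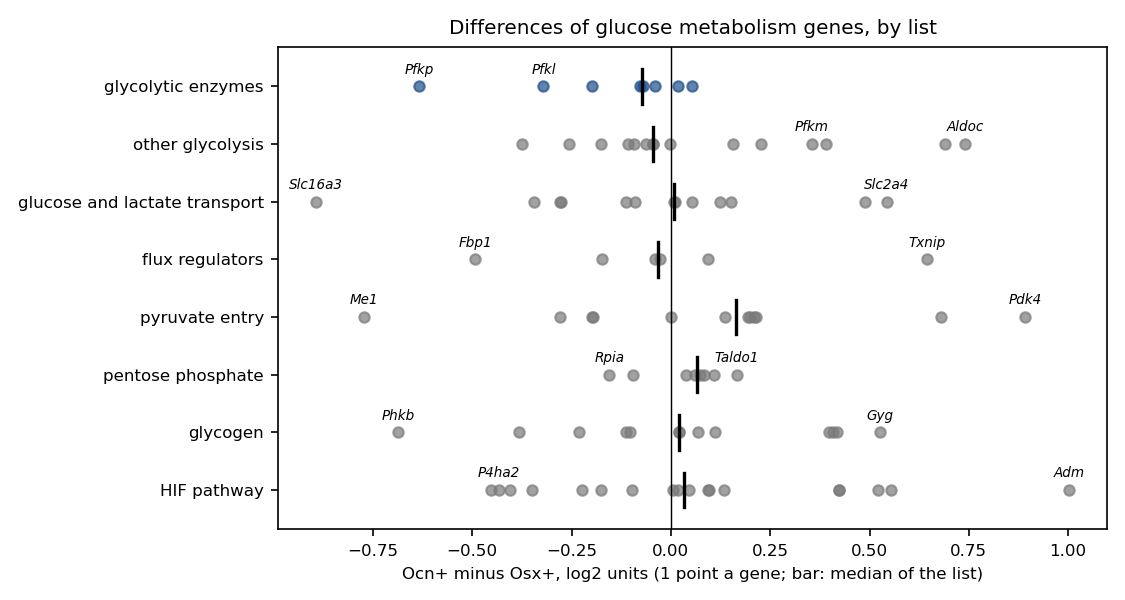
Difference of Ocn+ minus Osx+ in log2 units for each measured gene of the glycolytic enzymes and of 7 lists around them, 1 point a gene, with the median of each list as a bar. The medians lie between -0.07 and 0.16, and the genes with the highest and the lowest difference, Adm at 1.00 and Slc16a3 at -0.89, did not pass over all genes.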

How the data were processed

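RNA of 7 sorted samples was amplified with NuGEN Ovation V2 and measured on arrays, per the labels' protocols. The authors deposited 1 log2 value per probe set and array made with RMA, per the submitters' processing notes. Their software is not given in the sources used here. RMA equalizes the arrays' distributions, which removes differences in total RNA. Array medians ran from 8.25 to 8.35, and precision is limited by having 7 arrays.

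Of 22690 probe sets, 64 controls were left out of the fit. Of the others, 20380 had 1 gene symbol in the platform annotation, 691 several and 1555 none listed, and Entrez identifiers gave 20351 of them a current RefSeq symbol. Each gene was its brightest probe set of 1 symbol. Ocn+ minus Osx+ was fitted with limma 3.58.1 in R 4.3.3 (lmFit and eBayes, no block, 2-sided, Benjamini-Hochberg over 12393 genes, threshold 0.05), and values of further probe sets come from a fit over all 22626. The fit was tested on simulated data.

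The 10 genes and all lists were chosen with earlier results of these data known. Named pathway genes are the 2 of smallest p in each list, since 0 passed. Arrays were split by Xist at a log2 signal of 8, from the data. Alternatives were a replicate block, leaving out each array, filters on dim genes, array weights, other normalizations (median centring, quantile), a trended and robust prior, other choices of probe set, a threshold of 0.1, and Xist class as a term or by fitting each class alone. The Gapdh 3′ minus 5′ signal as a term was added after seeing the data.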

Additional observations from a re-analysis of the deposited data

Results flagged for a closer look

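Among 31 sets of Osx+ values examined for an array far from the others (8 glycolytic enzymes, 14 named pathway genes and 9 further probe sets), 1 stood out. Adm in Osx+ replicate 2 read 7.51 log2 units, and the other 3 Osx+ arrays ran from 8.40 to 8.53, so that the gap took 0.877 of the group's range. Chance marks about 1 in 20 such groups.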

How the results depend on the processing

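None of the 8 glycolytic enzymes passed in any of 22 alternatives, where the smallest adjusted p was 0.161 (limma, Xist class as a term, Pfkp). The median difference of the 8 ran from -0.16 to -0.01. Over all genes limma called 97 with array weights, 19 among high-Xist arrays, 27 with the Gapdh 3′ minus 5′ signal as a term, and 0 to 3 without 1 array, with 3 reached without Osx+ replicate 2 and without Osx+ replicate 3. The cause was not tested. Aldoa, Pgk1 and Pfkl kept their sign in every alternative, Pfkl from -0.61 (without Ocn+ replicate 1) to -0.06 (without Osx+ replicate 1). Pfkp ran from -0.79 to -0.49 except where its dimmer probe set entered, at 0.0813 with the mean of all probe sets and 0.796 with the probe set of largest variance. Slc2a4, at 0.54 with its brightest probe set, was at -0.0459 with the most variable one. Differences near 0 changed sign. Hk1 was at 0.0439 with array weights, 0.0965 with the mean of probe sets, 0.270 with the most variable one, 0.00392 with the Xist class, 0.0618 among high-Xist arrays and 0.0848 with the Gapdh term. Hk2 was at -0.0123 with median centring and -0.0031 among high-Xist arrays. Ldha was at 0.00213 with array weights, 0.0037 with the Xist class, 0.0170 among high-Xist arrays and 0.0239 with the Gapdh term. Without 1 array, Hk1 ran from -0.211 to 0.0818, Hk2 from -0.0752 to 0.178, Pkm from -0.121 to 0.00035 and Ldha from -0.117 to 0.0171. The filter at the median signal leaves Aldoc, Slc2a4, Fbp1, Phkb and Adm without a value.

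Replicate numbers were not shown to pair samples. The deviations of same-numbered samples correlated at 0.63, 0.45 and -0.30, and the third Ocn+ sample correlated best with Osx+ replicate 4. With the replicate block, which leaves Osx+ replicate 4 without weight, limma called 0 genes, Pfkp was at -0.76 (adjusted p = 0.675) and Hk2 at -0.0247.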

Other observations

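In the side routes of glucose no gene passed. Of 9 pentose phosphate genes 8 were measured, and their differences ran from -0.15 for Rpia, an isomerase of the route, to 0.17 for Taldo1, its transaldolase, with 0 past an adjusted p of 0.05 in limma. Without 1 array Rpia ran from -0.23 (without Ocn+ replicate 1 or Osx+ replicate 4) to -0.07 (without Ocn+ replicate 3 or Osx+ replicate 1). Taldo1 was at 0.05 when Osx+ replicate 4 was left out, at 0.11 when Ocn+ replicate 1 was, and at 0.33 when Osx+ replicate 1 was. All 8 intervals lay within 1 log2 unit of 0. Of 14 glycogen genes 13 were measured and 0 passed. Gyg, the primer of glycogen synthesis, read 10.08, 10.60 and 10.71 in Ocn+ arrays, against 9.60, 10.13, 10.02 and 9.98 in Osx+ arrays, a difference of 0.53 (SE 0.22). Phkb, a subunit of the kinase that starts glycogen breakdown, had a difference of -0.69 (SE 0.38).

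Besides the genes named in the lists, 3 pathway genes were without overlap and are named after their values were seen. Bnip3, which encodes a mitochondrial protein and is induced in hypoxia, ran from 11.22 to 11.48 in Ocn+ arrays and from 11.56 to 12.27 in Osx+ arrays. Its difference was -0.45 (SE 0.21). Vhl, which marks hypoxia-inducible factor for breakdown, ran from 6.87 to 7.13 in Ocn+ arrays and from 6.19 to 6.72 in Osx+ arrays. Pdhb, a subunit of pyruvate dehydrogenase, ran from 12.36 to 12.42 in Ocn+ arrays and from 12.04 to 12.33 in Osx+ arrays. The adjusted p of these 3 ran from 0.969 to 0.999 in limma, and 6.9% of all genes were without overlap.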
